A study of Mus musculus with 45 samples.

Results

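The genes described here encode nuclear subunits of oxidative phosphorylation, and 73 of the 54532 genes counted were members. They were chosen by symbol (complex I subunits beginning Nduf, complex III subunits beginning Uqcr, complex IV subunits beginning Cox4 to Cox8 and complex V subunits beginning Atp5, without pseudogenes named -ps) and by a mean of at least 5 CPM (counts of a gene per 1000000 counts of its library) over all 45 libraries. Of 85 genes with such a symbol, 12 were under the limit. Complex I held 36 members, complex III 8, complex IV 12 and complex V, the ATP synthase, 17. Every member passed the filter on low counts in each comparison.

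RNA was measured in neural tube organoids, which are hollow balls of neuroepithelium grown clonally in Matrigel from the mouse embryonic stem cell line R1. Day 2 was 48 h after seeding, and from then on organoids were kept in N2B27 medium alone (untreated) or with 250 nM all-trans retinoic acid (RA), a posteriorizing signal of the neural tube. Libraries were made at day 2 and, in both arms, 8 h later, 18 h later and then every 12 h up to 78 h (7 times), which gives 15 groups of 3 biological replicates. All groups come from the same cell line, each library pooled the cells of many organoids, and the arms differ in RA. The times and the dose follow the study's methods, since a protocol in the labels gives the dose in another unit and some times differently.

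Oxidative phosphorylation passes electrons from NADH through complexes I, III and IV to oxygen, and the protons pumped on the way drive ATP synthesis in complex V. Most subunits are made from nuclear genes and imported into mitochondria, while a small set is made from mitochondrial DNA. Some subunits come in alternative isoforms that are used in muscle, lung or testis. Pluripotent cells are known for high glycolysis, and the balance between glycolysis and respiration is known to shift as they differentiate.

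Nuclear respiratory factor 1 (NRF1), ETS family factors such as GABPA, and YY1 are known regulators of these genes, and their core letters were searched in the promoters. RefSeq promoter windows (GRCm38.p6, 250 bases before to 50 after a gene's start) were matched by symbol and chromosome to 59 of the 73 members, in 64 windows. The NRF1 core GCATGCGC, read on both strands, stood in 9 of the 64 windows (14.1%), against 2.71% of all 32851 windows of that length and 5.63% of the 11314 windows of genes with a mean of at least 5 CPM. The ETS core CCGGAAG stood in 14 windows (21.9%), against 8.86% of all and 18.5% of those of genes at 5 CPM or more. The YY1 core AAGATGGC stood in 9 windows (14.1%), against 2.75% and 4.68%. Matches of different motifs never overlapped. Any of the 3 was found in 27 of the 59 members, namely 14 of 31 in complex I, 3 of 5 in complex III, 3 of 10 in complex IV and 7 of 13 in complex V.

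The 250 bases before the start are shown for 4 members whose RNA moved in different ways below. Stretches with a match are over-represented among these 4, which are not typical of the members named below. Cox6a1 (chr5:115348959-115349208, minus strand) and Ndufa11 (chr17:56717512-56717761, plus strand) fell with time and were later higher with RA. Atp5l (chr9:44920743-44920992, minus strand) and Cox6b2 (chr7:4753095-4753344, minus strand) were lower with RA. Capitals mark matches, and sequences run 5′ to 3′ on the gene's strand.
Cox6a1: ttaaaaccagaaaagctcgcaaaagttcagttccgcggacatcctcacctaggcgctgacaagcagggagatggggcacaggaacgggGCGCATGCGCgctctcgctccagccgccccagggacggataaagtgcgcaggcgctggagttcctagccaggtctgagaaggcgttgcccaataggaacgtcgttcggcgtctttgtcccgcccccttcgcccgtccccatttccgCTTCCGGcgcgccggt
Ndufa11: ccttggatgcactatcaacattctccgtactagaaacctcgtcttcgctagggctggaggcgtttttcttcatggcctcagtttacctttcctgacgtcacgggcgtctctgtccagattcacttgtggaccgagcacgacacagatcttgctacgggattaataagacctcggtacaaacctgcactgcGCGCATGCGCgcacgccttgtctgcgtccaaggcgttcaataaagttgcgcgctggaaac
Atp5l: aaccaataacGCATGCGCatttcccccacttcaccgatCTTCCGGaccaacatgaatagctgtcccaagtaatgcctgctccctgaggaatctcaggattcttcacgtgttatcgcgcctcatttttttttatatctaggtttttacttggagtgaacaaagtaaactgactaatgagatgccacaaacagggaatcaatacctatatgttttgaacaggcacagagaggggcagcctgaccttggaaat
Cox6b2: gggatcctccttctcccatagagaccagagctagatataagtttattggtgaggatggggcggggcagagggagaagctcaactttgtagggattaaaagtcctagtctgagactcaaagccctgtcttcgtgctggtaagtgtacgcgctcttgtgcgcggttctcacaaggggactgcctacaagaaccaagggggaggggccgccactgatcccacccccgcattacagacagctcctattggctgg
In Cox6a1 the NRF1 core began 160 bases before the start and overlapped its opposite-strand copy, which began at 162, and the ETS letters began at 16. In Ndufa11 the core began at 58 and its opposite-strand copy at 60. In Atp5l the NRF1 letters began at 240 and the ETS letters at 212. None of the 3 motifs was in the Cox6b2 stretch. None was in the same stretch of Atp5d, Uqcrfs1, Ndufs8 or Ndufa12, which were also higher with RA later. The stretches of Cox7c, Ndufv3 and Ndufs4, which were lower with RA, held none either. In the full windows counted above, which reach past the start, Ndufs8 had an ETS match and Ndufs4 a YY1 match. A match is a string of letters and was not tested as a site.

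The mean level of a member over the 45 libraries ranged from 5.55 to 1811 CPM, with a median of 67.6 CPM. Atp5b, the catalytic beta subunit of ATP synthase, was the highest at 1811 CPM. The highest member of complex IV was Cox4i1 at 379 CPM, that of complex III was Uqcrc1, a core protein, at 215 CPM, and that of complex I was Ndufs1, an iron-sulfur core subunit, at 212 CPM. The members just inside the limit were Ndufa4l2 at 5.55 CPM, Ndufb4 at 5.64 CPM and Atp5s at 7.94 CPM. The genes just outside it were Cox7a1 at 4.81 CPM, Cox7b2 at 0.431 CPM and Cox4i2 at 0.417 CPM. For 19 members more than 10% of the stretches of 75 bases, the read length, of the longest coding transcript also occur in another gene, and their counts are uncertain. That share was 76.0% for Atp5l, the ATP synthase subunit g, shared with 10 other genes, and 25% for Cox7c. It was 35.2% for Ndufb4 and 0% for Ndufa4l2, Cox6b2, Ndufs4 and Ndufv3.

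Where a subunit has isoforms, the common one was above the tissue-restricted one on a scale of CPM per kilobase of exon. Cox4i1 stood at 245 CPM per kilobase and the lung isoform Cox4i2 at 0.524. Cox6a1 stood at 126 and the muscle isoform Cox6a2 at 0.0817. Cox8a stood at 149, Cox8c at 0.455, and no read was counted for Cox8b. Cox7a2 stood at 88.4 and the heart and muscle isoform Cox7a1 at 8.96. The testis-enriched isoform Cox6b2 was well expressed at 33.1 CPM per kilobase beside 170 for Cox6b1. Of the 3 genes for the same subunit c of ATP synthase, Atp5g3 stood at 126, Atp5g2 at 23.6 and Atp5g1 at 11.4. The order of the last 2 rests on the annotated exon length, 1675 bases for Atp5g2 and 4912 for Atp5g1. In CPM not divided by length Atp5g1 was the higher one, at 55.8 against 39.5. Ndufa4, now regarded as a complex IV subunit, stood at 97.7 and its paralog Ndufa4l2, a known target of hypoxia-inducible factor, at 5.06. By their names both are counted with complex I in all numbers by complex.

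Libraries held 17298632 to 39688686 counts, and at that depth the lowest count of any member in any library was 9, for Ndufa4l2. Certain libraries stood apart before any comparison. The mean level over 4 Y-linked genes, Ddx3y, Eif2s3y, Kdm5d and Uty, was 1.22 to 3.65 CPM in 6 libraries and 22.9 to 89.5 CPM in the other 39. The 6 were the 3 untreated libraries at 30 h, RA replicates 1 and 3 at 30 h, and RA replicate 3 at 8 h, so that at 30 h RA replicate 2 and at 8 h RA replicate 3 differ from the libraries they are compared with. The numbers in the sample titles fall into an earlier and a later series. All libraries at 66 and 78 h are of the later series and all at 42 h of the earlier one, so that series and time cannot be told apart between 42 and 78 h.

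The members' RNA declined from day 2 in both arms, and under TMM scaling the mean over all members lay lower with RA at each time but 30 h. The median over the 73 members of log2(CPM / day 2 mean CPM) was -0.08 at 8 h, -0.20 at 18 h, -0.27 at 30 h and -0.32 at 42 h in untreated organoids (mean of 3 libraries). It then stood at -0.24, -0.28 and -0.29 at 54, 66 and 78 h. With RA it was -0.17 at 8 h, -0.34 at 18 h, -0.22 at 30 h and -0.49 at 42 h, then -0.37, -0.45 and -0.42. At 18, 42, 54, 66 and 78 h every RA library lay below every untreated library of its time under TMM scaling, while by library totals the means at 18 h were -0.15 with RA and -0.13 without. At 30 h the RA libraries stood at -0.33, 0.02 and -0.36, and the untreated ones between -0.28 and -0.25. By this median of levels relative to day 2, complex IV did not lie lower with RA at 66 and 78 h. Its mean was -0.54 in both arms at 66 h, and -0.52 with RA and -0.53 without at 78 h. By library totals it was higher with RA at both times, at -0.36 against -0.43 and at -0.36 against -0.40. Gene by gene under TMM scaling, however, most complex IV members had a negative log2 fold change with RA. These were 10 of 12 at 66 h (median -0.08) and 9 of 12 at 78 h (median -0.06). The members together took 1.03% ± 0.0369 of counts at day 2, 0.838% ± 0.0138 in untreated and 0.835% ± 0.0250 in RA organoids at 78 h (SD, n = 3). In bulk samples, fewer cells of a type and less RNA per cell cannot be told apart.

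**Figure D1:**
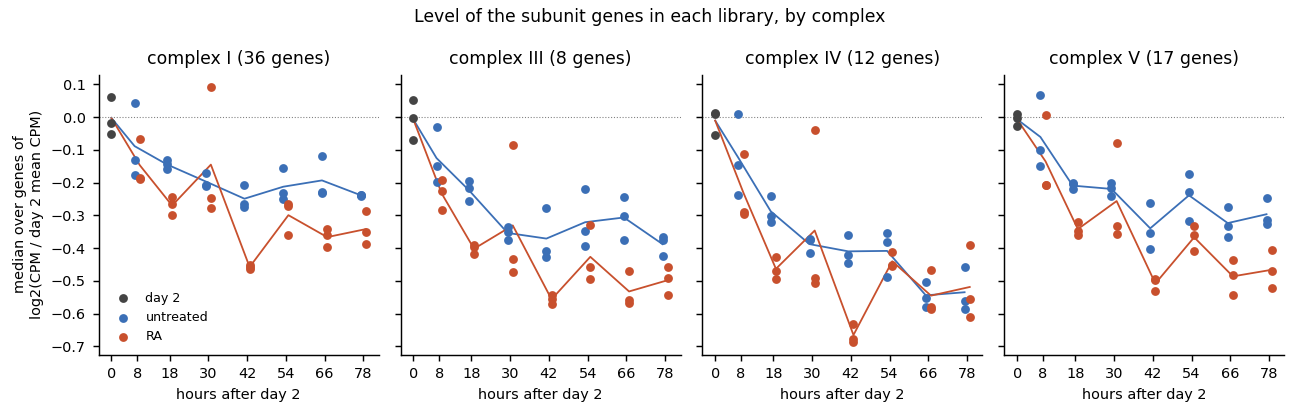
For each library, the median over the members of a complex of log2(CPM / day 2 mean CPM) is plotted against hours after day 2, with lines through the means of 3 libraries; CPM is scaled by TMM. Over all members RA libraries reached -0.49 on average at 42 h against -0.32 without RA, and RA replicate 2 at 30 h lies apart at 0.02; with library totals as the scaling the means at 18 h are -0.15 with RA and -0.13 without. In complex IV the means at 78 h are -0.52 with RA and -0.53 without.

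Between day 2 and 18 h members of all 4 complexes fell in untreated organoids, with the highest share in complex IV. In untreated organoids 32 members fell and 1 rose (edgeR quasi-likelihood test, Benjamini-Hochberg adjusted p under 0.01 over all genes tested, no minimum fold, the rule for every call here). The backgrounds, the shares of all genes tested that were called, were 14.1% lower and 14.6% higher. The median log2 fold change of the members was -0.21, against 0.01 over all genes tested. By complex, 10 of 36 members of complex I fell, 4 of 8 of complex III, 10 of 12 of complex IV and 8 of 17 of complex V. Leaving out day 2 replicate 1, untreated 18 h replicate 1 or untreated 18 h replicate 3 left 21, 19 and 20 falls, and scaling by library totals 21.

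Cox8a, a small complex IV subunit, stood at 129, 126 and 183 CPM at day 2 and at 101, 101 and 82.5 CPM in untreated organoids at 18 h. The groups did not overlap, but day 2 replicate 3, which is of the later series, was far above the other day 2 libraries. Its log2 fold change was -0.63 ± 0.123 (SE, edgeR adjusted p 0.0010), and DESeq2 did not call it. Uqcr10, a small complex III subunit, went from 89.6, 82.4 and 97.0 CPM to 59.6, 63.5 and 58.6 CPM, a log2 fold change of -0.56. The single rise was Ndufa4l2, from 1.82, 1.65 and 2.24 CPM to 4.74, 5.61 and 6.08 CPM, with a log2 fold change of 1.53 ± 0.178 (edgeR adjusted p 1.2e-05).

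With RA more members were called in the same step, and the arms at 18 h are compared directly below. From day 2 to 18 h, 51 of 73 members fell and 1 rose, against backgrounds of 28.8% lower and 30.0% higher. The median log2 fold change was -0.36 in the members and 0.02 over all genes tested. In complex I 21 members fell, in complex III 6, in complex IV 11 of 12 and in complex V 13. The arms share the day 2 libraries, and 31 members were called down in both, which is 31 of the 32 without RA and 31 of the 51 with RA. The library total as scaling shifted the median of all genes by more than 0.1 here and gave 27 falls and 4 rises. The members' median relative to that of all genes was -0.38 under both scalings. A change of scaling shifts all genes nearly alike, so this equality was fixed in advance and is no check.

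Atp5l showed the largest fall by RA at 18 h, from 12.6, 13.6 and 11.5 CPM at day 2 to 6.64, 6.14 and 6.13 CPM, a log2 fold change of -1.002 ± 0.111 (edgeR adjusted p 5.5e-07). Uqcr10 stood at 50.1, 52.9 and 52.4 CPM in these RA libraries, a log2 fold change of -0.80. Ndufa4l2 again was the rise, to 8.86, 11.6 and 11.2 CPM, with a log2 fold change of 2.45 ± 0.166 (edgeR adjusted p 1.3e-09). RA at 18 h is among the groups through which this gene passed the CPM limit, so this test is not independent of its choice.

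From 18 to 42 h the RA arm went on falling. With RA 32 members fell and 1 rose, against backgrounds of 20.8% and 22.1%, and the median was -0.21 in the members and -0.01 over all genes tested. The falls were 15 in complex I, 4 in complex III, 6 in complex IV and 7 in complex V. Without RA 42 h replicate 2 there were 20. In untreated organoids 11 members fell, against a background of 14.0%, and edgeR called 0 up, against 17.6%. No untreated rise had an unadjusted p under 0.05, and DESeq2 called 0 as well. The untreated falls numbered 7, 5, 6 and 6 without 18 h replicates 2 and 3 and 42 h replicates 2 and 3, and without 42 h replicate 2 there was 1 rise. Scaled by library totals there were 6 falls. Between arms 9 members fell in both, of 11 without RA and 32 with RA.

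Ndufa4l2 led the falls with RA in this step, from 8.86, 11.6 and 11.2 CPM to 1.03, 2.79 and 3.74 CPM, with a log2 fold change of -2.03 ± 0.282 (edgeR adjusted p 8.0e-05). This test too starts from a group through which the gene passed the CPM limit. Cox7c, a complex IV subunit, went from 148, 130 and 136 CPM to 88.3, 85.0 and 89.4 CPM, a log2 fold change of -0.65. The only rise was Uqcrfs1, the Rieske iron-sulfur protein of complex III, with a log2 fold change of 0.25 ± 0.0476. In untreated organoids the largest falls were in Cox6a1 and Cox6b2, each with a log2 fold change of -0.39. Cox6a1 went from 94.4, 97.5 and 91.7 CPM to 69.4, 72.5 and 69.1 CPM.

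From 42 to 78 h few members were called in either arm. With RA 8 members rose, against a background of 12.1%, and edgeR called 0 down, against 9.57%, with 4 members down at an unadjusted p under 0.05 and 0 called by DESeq2. The rises fell to 1, 5, 3 and 5 without 42 h replicates 2 and 3 and 78 h replicates 2 and 3, and 3 falls appeared without 78 h replicate 1. In untreated organoids 7 members fell and 1 rose, against 14.5% and 18.9%. Those falls numbered 3 to 4 when 42 h replicate 2 or any of the 3 libraries at 78 h was left out, and 2 rises were called without 42 h replicate 3. Scaled by library totals the untreated calls were 5 down and 3 up. The members' share called was below the background in both arms, and the change of series between these times cannot be told apart from it.

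The largest rises with RA were Ndufa12, a complex I accessory subunit, and Uqcrq, a complex III subunit. Ndufa12 went from 15.7, 15.1 and 15.1 CPM to 20.8, 22.2 and 19.6 CPM, a log2 fold change of 0.41 ± 0.0795 (edgeR adjusted p 0.0028), and was not called when 42 h replicate 2 or 78 h replicate 2 was left out. Uqcrq went from 52.4, 49.4 and 52.9 CPM to 69.5, 70.2 and 69.6 CPM, a log2 fold change of 0.40 ± 0.0533. In untreated organoids Cox7a2l, a factor of respiratory supercomplex assembly, rose with a log2 fold change of 0.36 ± 0.0629, while Cox7c fell with -0.49 and Atp5l with -0.57. Atp5l was not called without 42 h replicate 1 or 2 or without 78 h replicate 1 or 3.

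**Figure D2:**
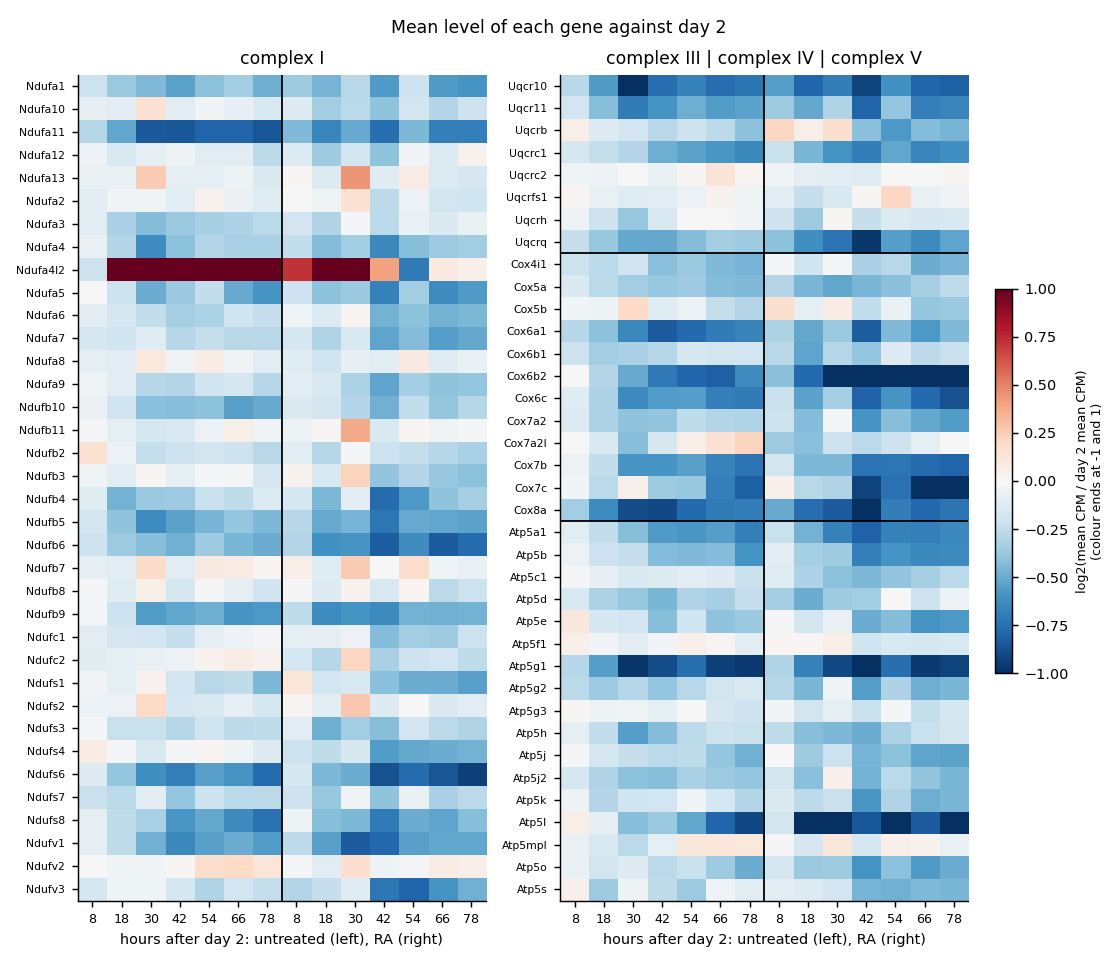
Each row is a member, each column a time after day 2, untreated on the left and RA on the right, and colour is log2(mean CPM / day 2 mean CPM) of 3 libraries under TMM scaling. At 18 h 72 of 73 members were below their day 2 mean without RA and 69 with RA, and Ndufa4l2 stands out as the row above it in both arms at that time. By library totals the median level at 18 h was -0.13 without RA and -0.15 with RA.

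RA was compared with no treatment at each of 7 times, which asks whether the posteriorizing signal changed these genes beyond the change with time. The 7 comparisons share no library. At 8 h edgeR called 0 members in either direction, against backgrounds of 1.84% higher and 1.3% lower. At an unadjusted p under 0.05 there were 1 up and 8 down, and DESeq2 called 0 up and 2 down. The median log2 fold change was -0.05, against 0.02 over all genes tested. Without RA replicate 3, the library with low Y-linked levels, edgeR called 1 up, Ndufa4l2 with a log2 fold change of 1.19 ± 0.212, and 2 down, Cox6b2 with -0.36 and Cox7a2l with -0.31, against 10.6% higher and 9.79% lower. The median was then -0.12. Ndufa4l2 stood at 3.69, 3.90 and 1.82 CPM with RA and at 1.87, 1.54 and 1.54 CPM without.

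At 18 h 15 members were lower with RA and 1 was higher, against backgrounds of 20.3% lower and 22.3% higher. The share called lower was 20.5%, that of all genes 20.3%. The median was -0.12 in the members and 0.02 over all genes tested. The falls were 5 in complex I, 2 in complex III, 4 in complex IV and 4 in complex V. Without RA replicate 2 or 3 there were 8 and 9 falls, and without untreated replicate 2 there were 2 rises. Scaling by library totals, which shifts the median of all genes to 0.14, gave 4 falls and 4 rises and a members' median of 0.00. The difference between the members' median and that of all genes was -0.14 under both, which scaling could hardly change, so this is no check.

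The largest falls at 18 h were in Atp5l, Cox6b2 and Ndufb9. Atp5l stood at 11.6, 12.4 and 11.3 CPM without RA and at 6.64, 6.14 and 6.13 CPM with it, a log2 fold change of -0.88 ± 0.0973 (edgeR adjusted p 7.9e-06). Ndufb9, a complex I accessory subunit, stood at 51.8, 60.1 and 57.8 CPM and at 44.5, 44.0 and 38.7 CPM, a log2 fold change of -0.41 ± 0.0748. In neither gene did the groups overlap.

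At 30 h edgeR called 0 members in either direction, against backgrounds of 8.21% higher and 5.92% lower. At an unadjusted p under 0.05 there were 4 up and 6 down, and DESeq2 called 0 up and 3 down. The median was 0.07, against 0.04 over all genes tested. RA replicates 2 and 3 are of the later series here, and the other libraries at 30 h of the earlier one. Without RA replicate 2, whose Y-linked levels set it apart, 2 members were called up and 15 down, against 22.2% higher and 21.7% lower, and the median was -0.12. With library totals the median of all genes was 0.18 and that of the members 0.21. Cox6b2 stood at 38.5, 46.1 and 39.9 CPM without RA and at 21.4, 31.8 and 28.6 CPM with it.

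At 42 h, under TMM scaling, the members' median difference was the largest of the 7 times. With RA 23 were lower and edgeR called 0 higher, against backgrounds of 17.0% lower and 20.5% higher, with 1 member up at an unadjusted p under 0.05 and 0 by DESeq2. The share called lower was 31.5%. The median log2 fold change was -0.17, against 0.01 over all genes tested. The falls were 11 of 36 in complex I, 2 of 8 in complex III, 3 of 12 in complex IV and 7 of 17 in complex V. Without RA replicate 1 or 2 there were 15 and 13 falls. Among the members called, Cox7c, Ndufv3 and Ndufs4 showed the largest falls. Ndufa4l2 had a log2 fold change of -1.48 ± 0.426 and was not called (edgeR adjusted p 0.0138).

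At 54 h 15 members were lower and 3 higher, against backgrounds of 17.9% and 20.8%, with a median of -0.08 against 0.00 over all genes tested. The falls were 6 in complex I, 1 in complex III, 3 in complex IV and 5 in complex V. Without untreated replicate 3 or RA replicate 2 there were 9 and 8 falls, and without untreated replicate 1 or 2 or RA replicate 1, 2 or 3 there were 0 rises. Untreated replicate 3 is of the later series. With library totals 10 were lower and 4 higher.

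At 66 h 18 members were lower, 11 of them in complex I, 1 in complex III, 3 in complex IV and 3 in complex V, against a background of 15.6%. By edgeR 0 were called higher, against 17.8%, with 3 up at an unadjusted p under 0.05 and 0 by DESeq2. The median was -0.12, against -0.01 over all genes tested. Without untreated replicate 2 or RA replicate 2 there were 6 and 7 falls. With library totals 9 were lower and 1 higher.

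At 78 h 8 members were lower and 4 higher, against 14.2% and 19.2%, both shares below the background. The median was -0.04, against 0.00 over all genes tested. The falls were 6 in complex I, 1 in complex IV and 1 in complex V. Without untreated replicates 1, 2 and 3 there were 1, 0 and 1 rises. Without untreated replicates 1 and 2 and RA replicates 1, 2 and 3 there were 2, 3, 14, 2 and 3 falls. With library totals 4 were lower and 5 higher.

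Changes beyond 2-fold, the size the study's rule asks for, were nearly absent. When a log2 fold change beyond 1 was asked for as well, 0 members were called at 8, 18, 30 and 42 h, and 1 member, Ndufa4l2, at each of 54, 66 and 78 h. The backgrounds for that rule, in either direction, were 1.8% at 8 h, 10.9% at 18 h, 8.45% at 30 h, 12.5% at 42 h, 13.2% at 54 h, 11.5% at 66 h and 11.7% at 78 h.

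**Figure D3:**
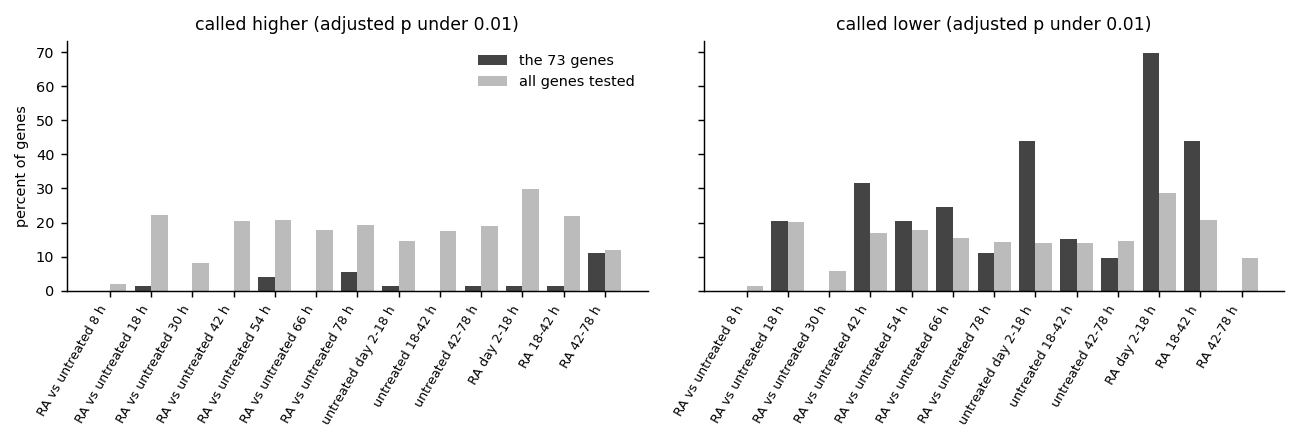
Bars give the percent of the 73 members and of all genes tested that edgeR called higher (left) or lower (right) at an adjusted p under 0.01 under TMM scaling, for each comparison. The members' share called lower is 69.9% from day 2 to 18 h with RA against 28.8% of all genes, and 20.5% for RA against untreated at 18 h against 20.3%; with library totals the falls in these comparisons are 27 and 4 of 73.

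**Figure D4:**
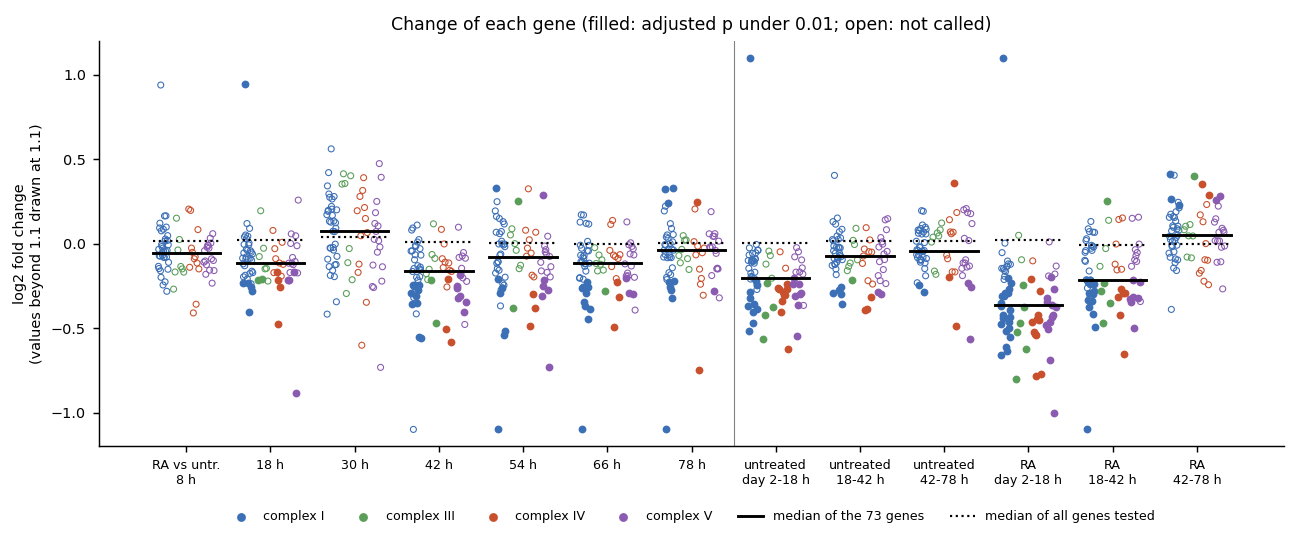
Each point is the log2 fold change of a member, coloured by complex and filled where edgeR called it, with solid lines at the members' median and dotted lines at the median of all genes; values beyond 1.1 are drawn at 1.1. The members' median is -0.36 from day 2 to 18 h with RA and -0.17 for RA against untreated at 42 h; library totals move the median at 18 h from -0.12 to 0.00.

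Over the 7 times, 39 of 73 members were called lower with RA at least once, and 34 never. Of the 14860 genes tested at all 7 times 37.6% were called lower at least once. Called higher at least once were 8 members, against 38.6% of those genes. Called lower 5 times was Cox6b2, 4 times were Ndufb3, Ndufb6, Ndufs4 and Ndufv3, and 7 members were called lower 3 times. Of the 5 genes called lower 4 or 5 times 4 belong to complex I, which holds 36 of the 73 members. The share of all genes called lower that often was not computed, so these counts are no finding about the members or about complex I.

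Ndufa4l2 (chromosome 10, 127514967 to 127517154, plus strand, 5 merged exons) had the largest fold changes among the members called, in both directions. It passed the limit of 5 CPM through the 3 groups where it was highest, RA at 18 h and both arms at 30 h. Its mean was 5.55 CPM over all libraries and 3.79 CPM over the other 36, so its place among the members rests on those groups. Its tests with RA at 18 h or either arm at 30 h, the interaction included, are not independent of that choice. Their p-values are given as description only. At 18 h Ndufa4l2 stood at 4.74, 5.61 and 6.08 CPM without RA and at 8.86, 11.6 and 11.2 CPM with it, a log2 fold change of 0.94 ± 0.129 (edgeR adjusted p 5.0e-05). In one edgeR fit of all 45 libraries this rise was not called (adjusted p 0.0516). At 30 h untreated organoids reached 12.6, 15.5 and 14.2 CPM, and RA organoids 14.4, 5.15 and 19.3 CPM. The groups overlap there, and the low library is RA replicate 2. All other libraries at 30 h have low Y-linked levels, so the high level at that time cannot be told apart from that difference between libraries.

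At 42 h it stood at 9.51, 3.35 and 8.51 CPM without RA and at 1.03, 2.79 and 3.74 CPM with it. The RA mean was the lower one there, the groups overlapped and the difference was not called. It was called lower with RA at the 3 later times. At 54 h Ndufa4l2 stood at 6.24, 4.75 and 5.01 CPM without RA and at 0.347, 1.08 and 2.07 CPM with it, with a log2 fold change of -2.20 ± 0.390 (edgeR adjusted p 0.00075). At 66 h the libraries stood at 7.07, 7.60 and 4.02 CPM and at 2.27, 2.19 and 1.64 CPM, a log2 fold change of -1.60 ± 0.249. At 78 h they stood at 6.73, 8.47 and 5.60 CPM and at 2.93, 2.18 and 0.805 CPM, a log2 fold change of -1.77 ± 0.316. RA libraries were below all untreated ones at these 3 times.

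Cox6b2 (chromosome 7, 4751792 to 4753094, minus strand) was lower with RA at every time without overlap of the groups. At 18 h it stood at 46.9, 49.8 and 47.5 CPM without RA and at 33.5, 33.6 and 35.9 CPM with it, a log2 fold change of -0.48 ± 0.0598 (edgeR adjusted p 2.5e-05). At 42 h the log2 fold change was -0.50, at 54 h -0.49 and at 66 h -0.49. At 78 h the libraries stood at 42.7, 34.9 and 36.8 CPM and at 27.2, 20.7 and 19.3 CPM, with a log2 fold change of -0.75 ± 0.123 (edgeR adjusted p 0.00047). Day 2 libraries stood at 61.6, 58.1 and 56.9 CPM, so both arms ended below the start.

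Ndufs4, an accessory subunit whose loss in mice is a known model of Leigh syndrome, had a negative log2 fold change with RA at all 7 times, without overlap of the groups at 6 of them, and was called lower from 42 h on. At 8 h its mean was 87.4 CPM without RA and 71.5 CPM with it, a log2 fold change of -0.28 that was not called. At 42 h it stood at 87.8, 79.6 and 79.9 CPM without RA and at 53.6, 55.1 and 60.9 CPM with it, a log2 fold change of -0.56 ± 0.0689 (edgeR adjusted p 7.3e-05). The log2 fold change was -0.54 at 54 h, -0.45 at 66 h and -0.32 at 78 h. The last was not called without untreated replicate 1 or 2 or RA replicate 2 or 3. Ndufv3, an accessory subunit of the NADH-oxidizing module, stood at 52.5, 47.7 and 51.9 CPM and at 31.8, 34.6 and 37.5 CPM at 42 h, a log2 fold change of -0.56 ± 0.0747. It was -0.52 at 54 h, -0.39 at 66 h and -0.22 at 78 h.

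Cox7c (chromosome 13, 86044816 to 86046904, minus strand) stood at 133, 126 and 132 CPM without RA and at 88.3, 85.0 and 89.4 CPM with it at 42 h. Its log2 fold change was -0.58 ± 0.0510 (edgeR adjusted p 5.8e-06), the largest called at that time. Atp5l (chromosome 9, 44912557 to 44920742, minus strand) was lower at 54 h too, with 9.49, 9.10 and 7.69 CPM against 5.85, 5.06 and 5.06 CPM and a log2 fold change of -0.73 ± 0.139. At 78 h its groups overlapped, at 6.76, 7.55 and 5.72 CPM without RA and at 6.40, 5.77 and 5.71 CPM with it.

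**Figure D5:**
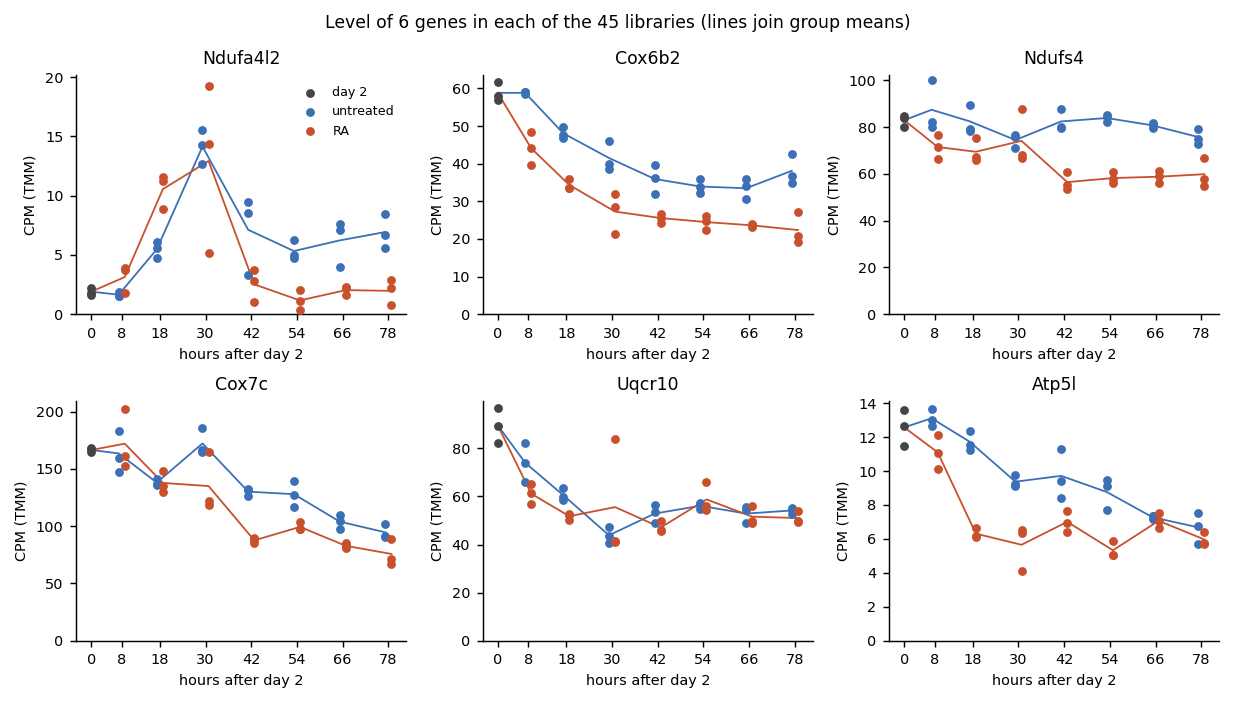
CPM of 6 members in each of the 45 libraries is plotted against hours after day 2, with lines through group means (TMM scaling). Ndufa4l2 libraries with RA are above the untreated ones at 18 h, at 8.86 to 11.6 CPM, and below them at 54, 66 and 78 h, while Cox6b2 with RA lies below the untreated libraries at every time.

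In the fits of all libraries of a time, members other than Ndufa4l2 were called higher with RA at 54 and 78 h. At 30 h, without RA replicate 2, the 2 called higher were Ndufb11 (log2 fold change 0.25 ± 0.0677) and Uqcrb (0.24 ± 0.0715). At 54 h they were Ndufa11 (log2 fold change 0.33), Atp5d, the ATP synthase delta subunit (0.29), and Uqcrfs1 (0.25). Ndufa11 stood at 32.9, 34.6 and 38.8 CPM without RA and at 49.4, 42.5 and 43.3 CPM with it. Each of the 3 lost its call when any library but untreated replicate 3 was left out. At 78 h the 3 largest were Ndufs8, an iron-sulfur core subunit (0.33 ± 0.0644), Ndufa12 (0.32 ± 0.0751) and Cox6a1 (0.24 ± 0.0557). Ndufs8 stood at 27.7, 27.4 and 27.05 CPM without RA and at 33.9, 32.2 and 36.0 CPM with it, and was not called without untreated replicate 2. Ndufa12 was not called without RA replicate 2 or any of the untreated libraries, and Cox6a1 without any of the untreated libraries.

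The effect of RA at 78 h was compared with that at 18 h in one fit of 12 libraries with an interaction term. It was higher at 78 h in 8 members and lower in 1, against backgrounds of 13.1% and 14.8%. The median difference was 0.03 in the members and -0.05 over all genes tested. Without untreated 18 h replicate 2 or RA 78 h replicate 1 it was lower in 2 and 4. Scaled by library totals it was higher in 5 and lower in 2, with a members' median of -0.05 and one of -0.13 over all genes. The largest differences were those of Atp5l (0.72 ± 0.161), Ndufb9 (0.50 ± 0.0954) and Ndufa12 (0.49 ± 0.114), and Ndufa4l2 had the single lower one (-2.74 ± 0.358, edgeR adjusted p 1.5e-05). For Ndufa4l2 the term uses RA at 18 h, a group through which it passed the CPM limit.

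The 7 core subunits of complex I that carry its flavin and iron-sulfur centres were called lower with RA in 2 cases at most in the fits of all libraries of a time. At 18 h 2 fell, Ndufv1 (log2 fold change -0.28) and Ndufs3 (-0.26), at 42 and 66 h 1 each, and at 78 h Ndufs8 was higher. At 30 h without RA replicate 2, 3 of the 7 were lower, Ndufv1 (-0.53), Ndufs8 (-0.33) and Ndufs7 (-0.31). From day 2 to 18 h 5 of 7 fell with RA and 2 of 7 without. The backgrounds called lower were 20.3% for RA at 18 h, 21.7% at 30 h without that library, 28.8% from day 2 with RA and 14.1% without. Their summed level was 868 CPM at day 2, 726 CPM with RA at 18 h and 793 CPM without.

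Other genes of the pathway were read from lists of known function. All genes tested were called lower in 20.3% and higher in 22.3% for RA at 18 h, and lower in 28.8% and higher in 30.0% from day 2 to 18 h with RA, and a list near those shares shows nothing about the list. Of 4 complex II genes, which feed electrons from succinate, 2 were lower with RA at 18 h, and 3 fell with RA from day 2 to 18 h. Of the genes for cytochrome c and c1, 1 of 2 fell in that step. Of 45 assembly factors tested 10 were lower and 3 higher with RA at 18 h, which is near the background, and 20 fell with RA from day 2. Of 13 tricarboxylic acid cycle genes 3 were lower at 18 h, near the background too, and 8 fell and 1 rose with RA from day 2. Of 19 tissue-specific isoforms, which include members, 17 were tested at 18 h, with 3 lower and 2 higher.

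Of the 13 subunits encoded in mitochondrial DNA 7 were tested, and 1 was lower with RA at 18 h. Their summed level was 26.1 CPM at day 2 and 17.6 to 27.6 CPM in the group means at 18, 42 and 78 h, with 6 of them under 1 CPM in every library. The authors had removed reads of abundant sequences, and the part of that step in these low levels was not tested. Of 77 mitochondrial ribosomal proteins, which translate those subunits, 41 were lower and 1 higher with RA at 18 h, and 60 fell with RA from day 2. Of 87 cytosolic ribosomal proteins 42 were lower at 18 h and 78 fell with RA from day 2.

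Among 13 tested regulators of mitochondrial biogenesis 6 were lower and 1 higher with RA at 18 h. Myc, a growth regulator, had a log2 fold change of -1.06 ± 0.0875 at 18 h and of 1.80 ± 0.109 at 78 h. Esrra, the estrogen-related receptor alpha, had 0.63 ± 0.0734 at 18 h and Pprc1, a PGC-1-related coactivator, -0.51 ± 0.0736. Ppargc1a, the PGC-1alpha coactivator, was under 1 CPM in every library.

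Of 18 glycolysis genes 12 were lower and 2 higher with RA at 18 h, against 20.3% and 22.3% of all genes, with a median of -0.41 beside -0.12 in the members. Over the 7 times in order 1, 12, 6, 14, 13, 16 and 12 were lower, against 1.3%, 20.3%, 5.92%, 17.0%, 17.9%, 15.6% and 14.2% of all genes. The median lay between -0.77 at 54 h and -0.38 at 8 h. Ldha, lactate dehydrogenase A, had a log2 fold change of -0.96 ± 0.0610 at 18 h and Pfkm, a phosphofructokinase, -0.73. The glucose transporters Slc2a1 and Slc2a3 were the higher ones, with 1.07 and 1.03. In untreated organoids 7 of 18 rose and 2 fell from day 2 to 18 h, against 14.6% and 14.1% of all genes. In that step 32 members of the respiratory chain and ATP synthase fell.

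Cell type markers moved with the same comparisons. The summed level of 8 neural progenitor markers, which check the labelled tissue, was 491 CPM at day 2, 1150 CPM without RA and 1320 CPM with RA at 78 h. Fabp7 and Hes5 were under 1 CPM in the day 2 libraries, and at 78 h no marker of the list was under it in all libraries of a group. Of 6 tested extraembryonic endoderm markers all 6 were higher with RA at 18 h, the summed level of the list being 44.7 to 46.0 CPM against 11.6 to 12.7 CPM. Without RA at 18 h Gata6, Sox17, Foxa2, Afp and Sox7 were under 1 CPM in each library, and with RA only Afp. The 8 pluripotency and epiblast markers summed to 2620 CPM at day 2, and at 18 h to 2020 CPM without RA and 1170 CPM with it.

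Neuron markers summed to 227 to 235 CPM without RA and 172 to 178 CPM with it at 18 h, and to 297 to 312 CPM and 371 to 398 CPM at 78 h. At 78 h 6 of 8 were higher with RA and 1 lower, against 19.2% and 14.2% of all genes. Neural crest markers summed to 53.4 CPM without RA and 10.3 CPM with it at 18 h, with Sox10, Tfap2b and Snai2 under 1 CPM without RA and Foxd3 and Tfap2b with it. Mesoderm markers summed to 3.76 and 32.8 CPM at 18 h, with Tbx6, Mesp1, Meox1, Msgn1 and Foxc2 under 1 CPM without RA and T, Mesp1, Msgn1 and Foxc2 with it. The part of these markers in the members' changes was not tested.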

How the data were processed

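The authors deposited one table of raw counts per gene for 45 libraries (poly(A) RNA, directional kit, 75-base single-end reads). Per the study's methods and the submitters' processing notes, reads were trimmed (Trim Galore 0.5.0), abundant sequences removed (Bowtie 2 2.3.4.1), aligned to GRCm38 with STAR and counted by featureCounts (Subread 1.6.2). The strand setting and the treatment of multi-mapping reads are not given in the sources used here, so counts of genes with near-identical copies can be split.

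Counts were tested with edgeR 4.0.16 (R 4.3.3): TMM, filterByExpr (minimum count 10, minimum total 15), glmQLFit and glmQLFTest on the libraries of each comparison, Benjamini-Hochberg adjustment over all genes tested, called at an adjusted p under 0.01. The SE is the log2 fold change divided by the square root of F. Levels are CPM scaled by TMM over all 45 libraries. Membership used unscaled CPM. Positions and symbols are from GENCODE M21 (GRCm38), and promoter windows from RefSeq. The test was tried on simulated counts first. In each of the 45 replicate pairs counts differed by more than sampling noise (mean chi-square per gene at least 1.94), so each library counted as 1 sample. P-values measure the spread between these libraries.

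Named were, among called members, the 3 largest rises and falls of each RA comparison, the 2 of each time step, the 3 largest interactions each way, the core subunits and isoforms, the genes nearest the CPM limit, the highest member per complex, and for other lists up to 4 genes with the largest change at 18 or 78 h. Ndufb3, Ndufb6, the 42 h value of Ndufa4l2, the 8 h value of Ndufs4 and the genes called at 8 or 30 h without a library are outside that rule and were named after their values were seen. The members and lists were chosen with earlier results of these data known. As alternatives, DESeq2 1.42.0, scaling by RLE or by library totals, no filter, a mean of at least 1 CPM, one fit of all 45 libraries, other thresholds, the replicate block, the earlier series at 30 h and leaving out each library were run. Same-numbered libraries did not deviate together in every comparison, so numbers were not taken as pairs.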

Additional observations from a re-analysis of the deposited data

Results flagged for a closer look

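The effect of RA at 78 h was not that at 18 h, by the interaction term over 12 libraries (edgeR, adjusted p under 0.01), in 8 members with a higher and 1 member with a lower effect at 78 h. All genes tested were called in 13.1% and 14.8%, so the members lie below the background in both directions and the counts are no finding about them. Atp5l had a difference of 0.715 on the log2 scale, with 76.0% of its read-length stretches also present in other genes. Ndufb9 had a difference of 0.5 and Ndufa12 one of 0.494. Ndufa4l2 had a difference of -2.74, higher with RA at 18 h and lower at 78 h, and it passed the CPM limit through groups that include RA at 18 h. All libraries at 78 h are of the later series, and the series and the time cannot be told apart.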

How the results depend on the processing

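The replicate number as a block changed counts by more than 1.5 times at 18 h (7 lower), 42 h (11 lower) and 78 h (7 higher, 14 lower), from 42 to 78 h without RA (6 higher, 12 lower) and with RA (2 higher), and in the interaction (2 lower), and same-numbered libraries did not correlate over 0.1 throughout. Library totals gave 4 higher and 4 lower at 18 h, 10 lower at 54 h, 1 higher and 9 lower at 66 h, 4 lower at 78 h, 21 and 6 lower in the first 2 untreated steps, 3 higher from 42 to 78 h without RA, 4 higher and 27 lower from day 2 to 18 h with RA, and 5 higher and 2 lower in the interaction. DESeq2 gave 2 lower at 8 h, 3 lower at 30 h and 14 higher in the interaction. One fit of all libraries gave 2 lower at 8 h, 0 higher and 8 lower at 18 h, 8 higher and 8 lower at 30 h, 15 lower at 42 h, 1 higher at 54 h, 6 lower at 66 h and 3 lower at 78 h. An adjusted p under 0.05 gave 2 lower at 8 h, 2 higher and 30 lower at 18 h, 4 lower at 30 h, 39 lower at 42 h, 5 higher and 25 lower at 54 h, 1 higher and 32 lower at 66 h, and 8 higher and 14 lower at 78 h. A log2 fold change beyond 1 left 0 higher and 0 lower at 18 h, 0 at 42 h, 0 higher and 1 lower at 54 h, 1 lower at 66 h, and 0 higher and 1 lower at 78 h. No filter gave 7 higher at 78 h, 2 higher from 42 to 78 h without RA, 1 lower in that step with RA and 2 lower in the interaction, and a mean of at least 1 CPM gave 2 higher at 18 h. The cause of these differences was not tested, apart from the threshold's own. Leaving out each library in turn gave, higher and lower, 0 to 1 and 0 to 2 at 8 h, 1 to 2 and 8 to 13 at 18 h, 0 to 2 and 0 to 15 at 30 h, 0 and 13 to 21 at 42 h, 0 to 4 and 8 to 18 at 54 h, 0 and 6 to 16 at 66 h, and 0 to 3 and 2 to 14 at 78 h. In the steps without RA it gave 1 and 19 to 34, 0 to 1 and 5 to 10, and 1 to 2 and 3 to 7, with RA 1 and 45 to 52, 1 and 20 to 32, and 1 to 7 and 0 to 3, and in the interaction 7 to 11 and 1 to 4. The median of the RA step from 18 to 42 h was nearer 0 without any library (-0.17 to -0.19). Of the named genes' values 0 reversed, and 33 of 276 with a library left out and 7 of 232 under other settings lost their call. Depth limits the members with few counts most: the lowest count in a library was 9 for Ndufa4l2, 91 for Ndufb4, 134 for Atp5l and 138 for Atp5s, and counting error was not set against the spread between libraries.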
